A study of Drosophila melanogaster with 59 samples.

Results

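The genes described here encode the nuclear subunits of the oxidative phosphorylation complexes of Drosophila melanogaster. They were taken by name: every gene whose FlyBase symbol begins with ND-, UQCR-, COX followed by a digit, or ATPsyn, together with SdhA, SdhB, SdhC and SdhD. The rule used no measured value and found 84 genes among the 17558 gene identifiers of the long RNA tables: 40 of complex I, 4 of complex II, 9 of complex III, 16 of complex IV and 15 of complex V. Each gene was put to a complex by its symbol alone, which need not match where its protein is found. Of the 84, 21 are L copies, genes named after another subunit gene with a trailing L. Subunit genes with other symbols, such as RFeSP, cype and blw, fall outside the rule and are given as a separate list.

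Oxidative phosphorylation takes place in the inner membrane of mitochondria. Complexes I and II take electrons from NADH and succinate, complex III passes them to cytochrome c, complex IV passes them to oxygen, and complex V uses the proton gradient built by complexes I, III and IV to make ATP. Complex II is encoded wholly in the nucleus, whereas the other complexes also hold subunits encoded by mitochondrial DNA. In the head, neurons, photoreceptors and muscle are heavy users of ATP, and an unfertilized egg carries mitochondria and mRNAs laid down by the mother.

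Long RNA (longer than 200 nt, from total RNA after removal of ribosomal RNA, without poly(A) purification) was sequenced from heads of 4-day-old adult males and from unfertilized eggs. In each tissue there were 2 libraries from each of 4 lines, 16 libraries in all. The strain was Oregon-R and all 4 lines carried the white mutation of w1118, which removes eye pigment. The control line w1118 carried no transgene, Fab2L also carried the Fab2L transgenic insertion, and White* and Red* were epilines with that same insertion, so that Fab2L, White* and Red* share 1 genotype in the labels. The labels do not say whether the 2 libraries of a line came from separate flies or cultures, so p-values measure only how far these libraries vary, and that variation may be technical. The RNA extraction text of the egg libraries names adult male heads, against their titles. The egg marker osk had a mean of 466 FPKM in libraries labelled as eggs and 0.17 FPKM in those labelled as heads, while the neuronal marker nSyb was at 89.1 FPKM in heads and 0.04 FPKM in eggs, as the titles say.

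Levels are FPKM, read counts scaled for transcript length and sequencing depth, as deposited. The summed reads behind them came to between 13490000 and 36600000 in head libraries and between 27820000 and 35640000 in egg libraries. Of the 84 genes, 71 had an FPKM above 1 in at least 2 of the 8 head libraries, and 60 had that in eggs, all of them among the 71. These 71 and 60 genes entered the tests beside all other genes that passed the same filter, 11119 in heads and 6682 in eggs. Differences are on the log2(FPKM + 1) scale from limma, which compresses changes of low genes, and a gene was called at a Benjamini-Hochberg adjusted p below 0.05 over all genes tested in that tissue.

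The ATP synthase, complex V, held the most abundant transcript of the group in both tissues. ATPsynbeta, the catalytic subunit (chromosome 4, 1031484 to 1034917, dm6), ranged from 841 FPKM to 1032 FPKM over the 8 head libraries with a median of 924 FPKM. In eggs it ranged from 715 FPKM to 919 FPKM with a median of 790 FPKM. ATPsynC, which forms the rotor ring in the membrane, came next in complex V with a mean of 642 FPKM in heads and 613 FPKM in eggs. The third was ATPsynO, part of the peripheral stalk, in heads (mean 327 FPKM) and ATPsynG, a small membrane subunit, in eggs (mean 267 FPKM). ATPsyndelta of the central stalk was the lowest member of complex V that is no L copy, at 18.5 FPKM in heads and 9.87 FPKM in eggs, and 40.3% of its span is shared with another annotated gene. Among the genes of complex V that pass in eggs, ATPsynD of the peripheral stalk was the next lowest there, with a mean of 74.6 FPKM.

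Among the genes with ND- symbols, counted here as complex I by name alone, ND-MLRQ was the highest. Its means were 637 FPKM in heads and 488 FPKM in eggs. ND-51 and ND-49, which are core subunits, followed in heads with means of 205 FPKM and 188 FPKM. In eggs ND-ACP, the mitochondrial acyl carrier protein, and ND-B14.5B followed with 187 FPKM and 111 FPKM. At the low end in eggs were ND-B16.6 at 3.53 FPKM and ND-MWFE at 1.95 FPKM. ND-75, the largest core subunit of the NADH-oxidising arm (chromosome X, 8248651 to 8251687), had a mean of 104 FPKM in heads and 37.7 FPKM in eggs.

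The 4 genes of complex II lay close together except for SdhB. In heads SdhC and SdhD, the membrane anchors, had means of 136 FPKM and 98.0 FPKM and SdhA, the flavoprotein, 119 FPKM. SdhB, the iron-sulfur subunit that links them (chromosome 2R, 6807626 to 6809172), had 59.1 FPKM. In eggs SdhA, SdhC and SdhD had means between 43.1 FPKM and 45.2 FPKM and SdhB 16.4 FPKM.

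Complex III was led in heads by UQCR-6.4 (mean 202 FPKM) and the core protein UQCR-C1 (186 FPKM), and in eggs by UQCR-C1 (113 FPKM) and the small subunit UQCR-11 (104 FPKM). The second core protein, UQCR-C2 (chromosome 3L, 16584124 to 16586111), had a mean of 114 FPKM in heads and 37.5 FPKM in eggs, and UQCR-Q was the lowest of the 5 tested in eggs at 36.5 FPKM. In complex IV COX7B was highest in both tissues, at 555 FPKM in heads and 509 FPKM in eggs. COX6B and COX8 came next in heads with 282 FPKM and 272 FPKM, and COX5B and COX7C in eggs with 178 FPKM and 157 FPKM. COX4 had 188 FPKM in heads and 84.2 FPKM in eggs. COX5A and COX7A were lowest in eggs, at 79.4 FPKM and 30.0 FPKM. The reads of COX6B are uncertain, because 81.9% of its span is shared with another annotated gene and no source used here says whether strand was used in counting.

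**Figure D1:**
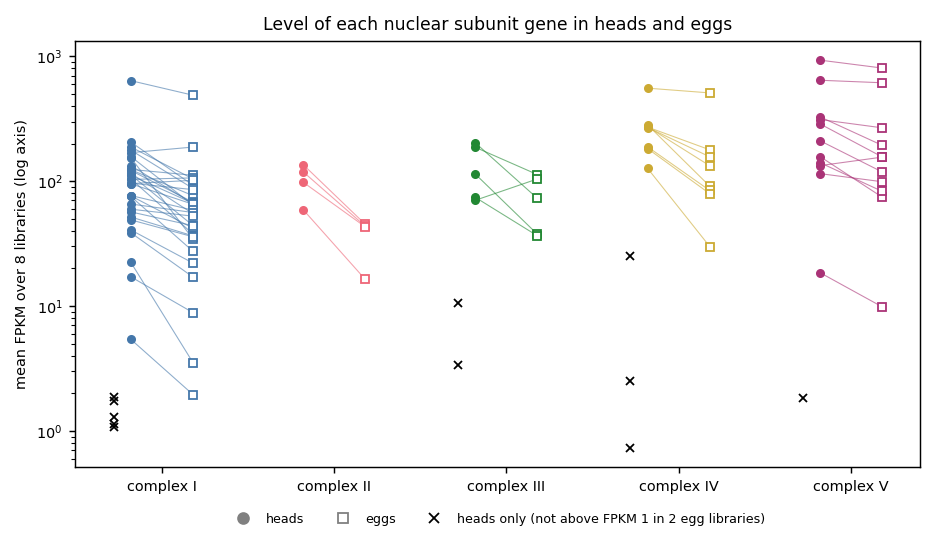
Mean FPKM over 8 libraries (log axis) of each tested gene, by complex: filled circles are heads, open squares eggs, and lines join the 60 genes tested in both. Crosses are the 11 genes that passed the filter in heads only, 10 of them L copies, and all but COX7AL2 and UQCR-11L lie below 4 FPKM.

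Across the 60 genes that passed in both tissues, the levels kept much the same order, with Pearson's r of 0.92 and Spearman's rho of 0.81 between the log2 means of heads and eggs. This is a correlation across genes, which are not independent replicates, and it is given as a description.

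None of the 21 L copies passed in eggs, and 10 of them passed in heads. COX7AL2 (chromosome 2L, 2192525 to 2197912) was the highest. It had 32.8 and 33.2 FPKM in w1118 heads, 20.4 and 23.0 FPKM in Fab2L heads, 16.9 and 23.6 FPKM in White* heads, and 21.6 and 29.0 FPKM in Red* heads, against a mean of 126 FPKM for COX7A, the gene it is named after. In all 8 egg libraries together COX7AL2 had 7 reads, against 4497 in heads. UQCR-11L followed with a mean of 10.6 FPKM in heads beside 70.3 FPKM for UQCR-11, then UQCR-6.4L with 3.34 FPKM beside 202 FPKM for UQCR-6.4. COX7CL, ND-51L1, ND-51L2, ATPsynCF6L, ND-49L and ND-B14.5AL had means between 1.08 FPKM and 2.52 FPKM. COX7AL was just inside the filter, above FPKM 1 in 2 head libraries with a mean of 0.73 FPKM, and COX4L and ATPsynepsilonL were just outside it, each above FPKM 1 in 1 head library.

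UQCR-11L, UQCR-6.4L, ND-51L1, ND-51L2, ATPsynCF6L, ND-49L and ND-B14.5AL each lie wholly inside the span of another annotated gene, so their reads may belong in part to that gene. COX7AL2 overlaps no other annotated gene. The other L copies, COX6AL, COX6AL2, COX6CL, ATPsynGL, ATPsynbetaL, ND-24L and UQCR-14L, had fewer than 1 FPKM in every library. ND-MNLL, UQCR-14, COX5BL and ND-20L are listed at 0 in all 16 libraries. The spans of ND-MNLL, UQCR-14 and COX5BL lie wholly inside another annotated gene, so a listed 0 may come from how reads were assigned and does not show that these genes are silent. ND-B8 was the only gene that is no L copy and passed in heads alone, with 0.757 to 3.33 FPKM there and 1 read in the 8 egg libraries.

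**Figure D2:**
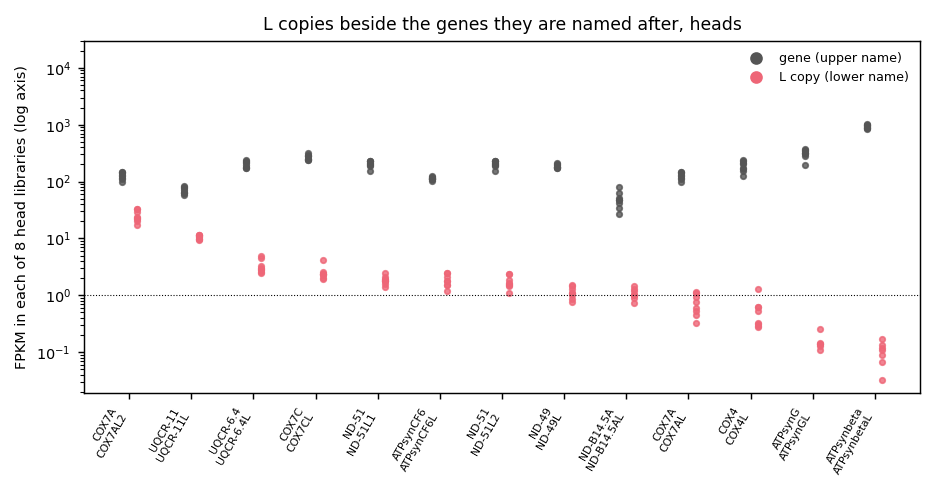
FPKM in each of the 8 head libraries (log axis) for the 13 L copies with a mean above 0.05 FPKM whose namesake is in the group (red) and the genes they are named after (grey), with a dotted line at FPKM 1. COX7AL2 and UQCR-11L come nearest to the genes they are named after, and values of 0 are not drawn.

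The first comparison asks how the 2 tissues differ. Most subunit genes were higher in heads. The deposited values of each tissue had been scaled by its own size factors, so a difference between tissues is read against all genes, whose median was 0.77 (heads minus eggs, log2). Of the 71 genes in the joint test of 11405 genes, 63 were called higher in heads and 3 lower, where 57.6% of all genes tested were called higher and 39.8% lower. The 11 genes that passed through heads alone had to be higher there, and among the 60 that passed in both tissues 52 were called higher and 3 lower, with a median of 0.82. The median and shares of all genes also include genes that passed in 1 tissue alone, so they are no matched comparison for the 60. Values over the 6400 genes tested in both tissues are not given here. The 3 lower genes, UQCR-11, ATPsynE and ND-ACP, changed sign when all 16 libraries were put on 1 median-ratio scale, where 59 of the 60 were called higher and none lower, beside 64.6% and 32.4% of all genes. That scaling moved the median of all genes by 0.33, to 1.10, and put the median of the 60 at 1.44. The 63 genes called higher with the deposited values were called higher under both scalings.

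The largest tissue differences among genes expressed in both were ND-B16.6, with 19.9 to 27.5 FPKM in heads and 2.86 to 4.29 FPKM in eggs (log2 difference 2.37 ± 0.06 SE, adjusted p = 2.8e-13), and ND-B17.2 at 2.11 ± 0.05 (adjusted p = 3.6e-13). Among the L copies COX7AL2, UQCR-11L and UQCR-6.4L had fitted values of 4.63, 3.52 and 2.09, which depend on the added 1 since their egg levels are near 0. All 4 genes of complex II were higher in heads, SdhB by 1.76 ± 0.09 and SdhA by 1.42 ± 0.03, which is 1.00 and 0.65 above the median of all genes. Bulk RNA cannot tell more cells of a type from more RNA per cell.

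The question put to Red* and White*, which share the genotype label, is whether the epilines differ in these transcripts. The 2 libraries of each did, for most of these genes in opposite directions in the 2 tissues. Whether this holds for the lines beyond these libraries cannot be told. The head and egg differences also ran opposite over all 6400 genes tested in both tissues, with r of -0.45, beside -0.80 over the 60 subunit genes. All 11 genes called lower in Red* than in White* heads, among them UQCR-C2, SdhB, ND-75, ND-B15 and ND-B17, were called higher in Red* than in White* eggs. In a fit of all 16 libraries the difference between heads and eggs in the Red* against White* contrast was called for 40 of 71 genes (25.2% of all genes), 5 with a higher and 35 with a lower contrast in heads than in eggs, where 10.3% and 14.9% of the 11405 genes were called in those directions. Among the 60 genes that passed in both tissues the counts were 3 and 35, and the median of the difference was -0.53. Over all 11405 genes, which include those that passed in 1 tissue alone, it was 0.03. With 1 library left out in turn, between 29 and 49 of the 71 were called.

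UQCR-C2 had the largest difference. In heads it had 129 and 175 FPKM in w1118, 112 and 91.2 FPKM in Fab2L, 128 and 150 FPKM in White*, and 53.6 and 69.3 FPKM in Red*. In eggs it had 38.3 and 30.0 FPKM in w1118, 35.5 and 32.4 FPKM in Fab2L, 27.8 and 21.2 FPKM in White*, and 56.3 and 58.5 FPKM in Red*. Red* was thus lowest of the 4 lines in heads and highest in eggs, with no overlap with any other line in either tissue. Red* against White* was -1.17 ± 0.19 SE in heads (limma adjusted p = 0.028) and 1.21 ± 0.14 in eggs (adjusted p = 0.0010), and the 2 differed by -2.38 ± 0.26 (adjusted p = 0.00018).

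SdhB followed the same course. Its head libraries had 68.5 and 94.4 FPKM in w1118, 54.0 and 44.7 FPKM in Fab2L, 68.0 and 73.9 FPKM in White*, and 31.0 and 38.1 FPKM in Red*. Its egg libraries had 18.8 and 14.1 FPKM in w1118, 16.4 and 13.7 FPKM in Fab2L, 11.5 and 9.87 FPKM in White*, and 23.5 and 23.0 FPKM in Red*. Again Red* was lowest in heads and highest in eggs without overlap. The log2 difference was -1.02 ± 0.17 in heads (adjusted p = 0.029) and 1.06 ± 0.13 in eggs (adjusted p = 0.0013).

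ND-75 had 62.6 and 79.2 FPKM in Red* heads against 117 and 126 FPKM in White* heads, with 118 and 133 FPKM in w1118 and 102 and 94.2 FPKM in Fab2L. Its egg values were 47.4 and 48.0 FPKM in Red* and 29.1 and 23.8 FPKM in White*, with 40.1 and 33.5 FPKM in w1118 and 39.8 and 40.1 FPKM in Fab2L. The contrast was -0.78 ± 0.13 in heads (adjusted p = 0.029) and 0.83 ± 0.10 in eggs (adjusted p = 0.0013). The other 7 of the 10 largest differences between the tissues were those of the complex I genes ND-B15 (-1.75 ± 0.28), ND-18 (-1.62 ± 0.22), ND-B14.5A (-1.41 ± 0.26), ND-B17 (-1.40 ± 0.20), ND-B18 (-1.34 ± 0.23), ND-B12 (-1.28 ± 0.29) and ND-24 (-1.20 ± 0.16), a core iron-sulfur subunit.

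Some subunit genes did not follow. ND-AGGG, a small complex I gene (chromosome 3L, 24976254 to 24977118), went the other way, with a difference between the tissues of 0.91 ± 0.18 (adjusted p = 0.0044), as did ND-MLRQ (0.53 ± 0.16) and ATPsynbeta (0.43 ± 0.12). ATPsynbeta was at 940 and 980 FPKM in Red* heads and 841 and 908 FPKM in White* heads, and in eggs at 757 and 715 FPKM in Red* and 890 and 919 FPKM in White*. ND-42, another complex I subunit, gave -0.13 ± 0.13, which was not called (adjusted p = 0.50). The most abundant genes with ND- and ATPsyn symbols, ND-MLRQ and ATPsynbeta, thus lay opposite to UQCR-C2, SdhB and ND-75.

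**Figure D3:**
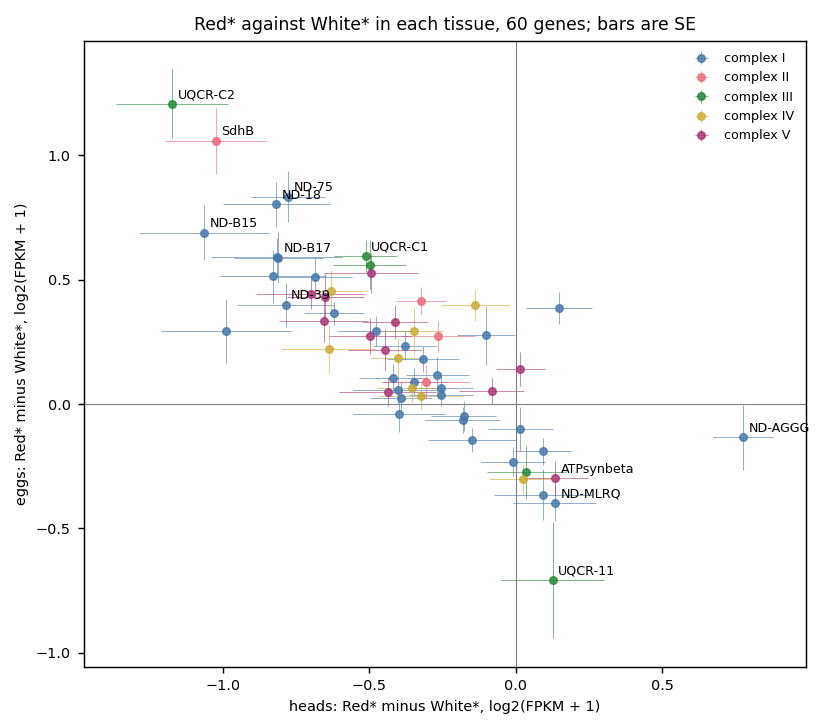
Red* minus White* in heads (x axis) and in eggs (y axis), both as log2(FPKM + 1), for the 60 genes tested in both tissues, coloured by complex with SE bars. UQCR-C2 and SdhB lie at the upper left, lower in Red* heads and higher in Red* eggs, and ND-AGGG at the far right.

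Of the 60 genes, 44 were lower in Red* heads and higher in Red* eggs by sign (73.3%, against 34.6% of the 6400 genes tested in both tissues). Of the rest, 9 were the reverse, 5 were lower in both and 2 higher in both, and the shares of all genes in those groups are not given here. Across the 60 genes the head and egg differences had Pearson's r of -0.80 and Spearman's rho of -0.81, and across all 6400 genes r was -0.45 and rho -0.47. No library is shared between the 2 tissues. These are correlations across genes and are given without a p.

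Within heads, 11 genes were called lower in Red* than in White* and 1 higher, where 3.02% and 0.845% of all 11119 genes were called in those directions. The median of the 71 genes was -0.32, beside 0.00 over all genes, and the libraries of the 2 lines did not overlap for 44 lower and 9 higher genes, against 27.8% and 26.9% of all genes. Beside UQCR-C2, SdhB and ND-75, the named genes called lower were ND-B15 (-1.06 ± 0.22), ND-B17 (-0.81 ± 0.15), ND-39 (-0.79 ± 0.17), ND-24 (-0.69 ± 0.13), ATPsynD of the peripheral stalk (-0.65 ± 0.13) and COX4 (-0.63 ± 0.13), a nuclear subunit of cytochrome c oxidase. Of the span of ND-39, 56.8% is shared with another annotated gene. The core protein UQCR-C1 was also called, at -0.51 ± 0.11 (adjusted p = 0.047). By complex, 6 of 37 genes of complex I, 1 of 4 of complex II, 2 of 7 of complex III, 1 of 11 of complex IV and 1 of 12 of complex V were called lower. The 10 L copies tested had a median of 0.28 and 8 of them were higher in Red* by sign.

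These head calls rest on few libraries. No gene was called without Red* replicate 1, without White* replicate 1 or without White* replicate 2, and 1 higher and 24 lower genes were called without Red* replicate 2. Red* replicate 1 was the lowest head library, with a median log2 deviation of -0.36 from each gene's mean over the 8 libraries, and Red* replicate 2 was at -0.13. The contrast kept its sign in every setting tried for the 10 genes with the largest differences.

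ND-AGGG was the only gene called higher in Red* heads. It had 134 and 119 FPKM in w1118 heads, 73.4 and 77.7 FPKM in Fab2L, 75.0 and 79.8 FPKM in White*, and 124.6 and 142 FPKM in Red*. The heads fell into a high pair of lines, w1118 and Red*, and a low pair, Fab2L and White*, with no overlap between the pairs. Red* against White* was 0.78 ± 0.10 (adjusted p = 0.016). In eggs it had 119 and 144 FPKM in w1118, 91.9 and 99.7 FPKM in Fab2L, 97.1 and 109 FPKM in White*, and 106 and 82.8 FPKM in Red*, where Red* and White* overlapped.

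Within eggs, 28 genes were called higher in Red* than in White* and 8 lower of 60, where 21.5% and 22.7% of all 6682 genes were called. The median of the 60 was 0.22, beside -0.02 over all genes, and libraries did not overlap for 41 higher and 9 lower genes, against 35.7% and 40.8% of all genes. After the 20 most abundant genes were removed and the libraries rescaled, 46 were called higher and 2 lower. Rescaling shifts all genes of a library, and the shares of all genes called under that setting are not given here. Without White* replicate 2 the counts were 16 and 1. The higher genes were led by UQCR-C2, SdhB, ND-75, ND-18 (0.80 ± 0.09), ND-B15 (0.69 ± 0.11), UQCR-C1 (0.59 ± 0.06), ND-B14.5A (0.59 ± 0.08), ND-B17 (0.59 ± 0.10) and UQCR-Q (0.56 ± 0.10), each past the threshold under every setting tried. They came from all complexes, 13 of 32 from complex I, 3 of 4 from complex II, 3 of 5 from complex III, 3 of 8 from complex IV and 6 of 11 from complex V.

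UQCR-11 was the largest of the lower calls in eggs, at -0.71 ± 0.23 (adjusted p = 0.041). It had 93.6 and 52.2 FPKM in Red* eggs against 110 and 119 FPKM in White*, 96.9 and 118 FPKM in Fab2L, and 112 and 130 FPKM in w1118. Red* replicate 2 alone lay far below the rest, and without it the difference was -0.29 (adjusted p = 0.12). The adjusted p ranged from 0.00101 to 0.17 over 11 other settings, and the call was lost in 5. The same library stood apart for the subunits encoded by mitochondrial DNA, whose 13 genes summed to 2686 FPKM there, against 13326 to 20129 FPKM in the other egg libraries. Their median Red* against White* difference in eggs was -1.53, with 1 of 13 called lower and none higher, and with 7 lower and none higher at an unadjusted p below 0.05. In heads it was 0.27, with none of 12 called by limma in either direction and 3 higher at an unadjusted p below 0.05. Without egg Red* replicate 2 the counts of nuclear subunit genes in eggs were 26 higher and 4 lower.

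**Figure D4:**
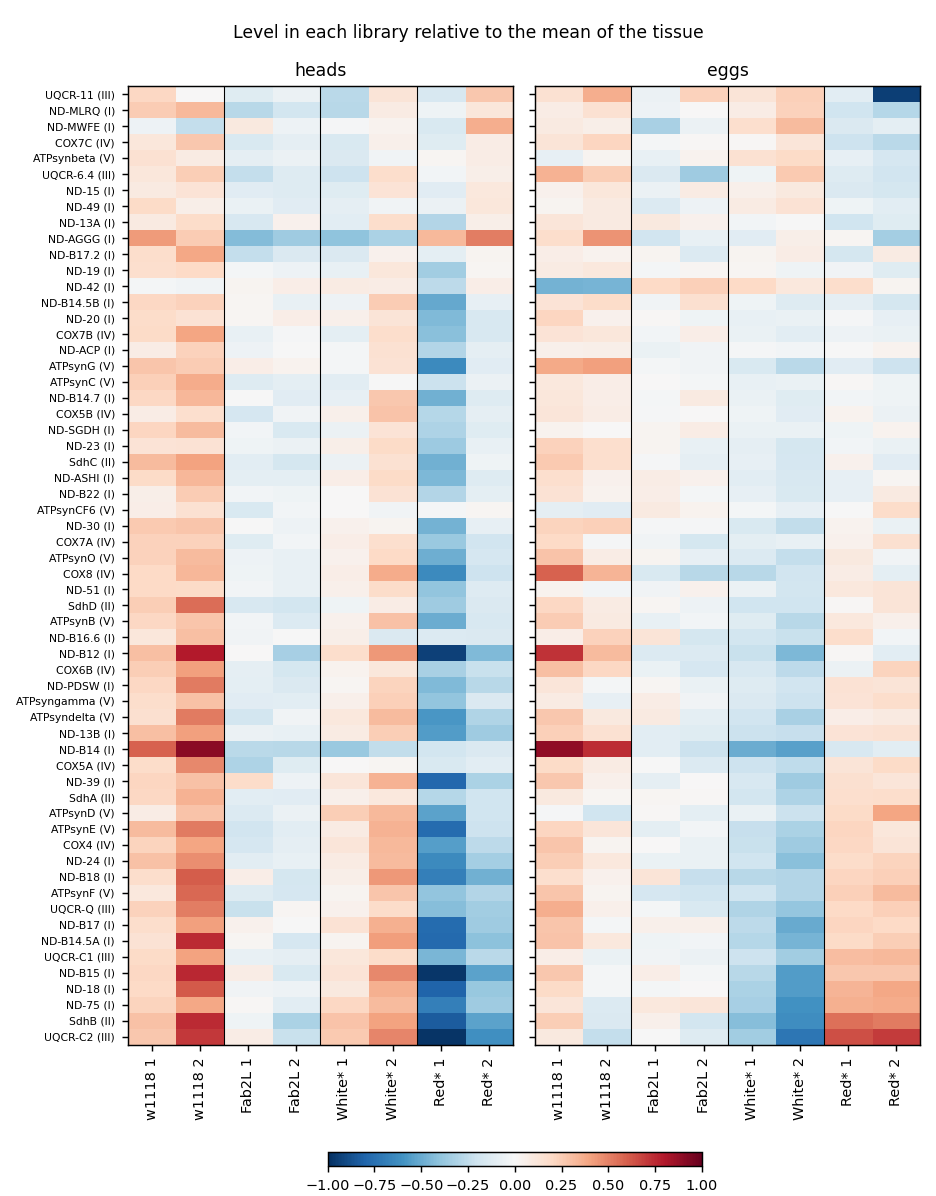
Colour gives log2(FPKM + 1) of each of the 60 genes tested in both tissues minus its mean over the 8 libraries of that tissue, limited to between -1 and 1, with columns for the libraries of each line and rows ordered by Red* minus White* in eggs (complex in brackets). The lowest rows are low in both Red* head libraries and high in both Red* egg libraries, and ND-B14 is high in all 4 w1118 libraries.

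In some lines the spread between the 2 libraries ran along a similar order of genes. In w1118 heads, replicate 2 was above replicate 1 for 58 of 71 genes, by 0.44 for UQCR-C2, 0.46 for SdhB and 0.54 for ND-B15. Across the 71 genes this replicate difference had r of -0.43 with Red* minus White* in heads, which uses none of those libraries: genes lower in Red* tended to be higher in that replicate. In eggs the w1118 replicate difference had r of -0.77 with Red* minus White* over 60 genes, and the Fab2L replicate difference r of -0.48. In Fab2L heads the replicate difference had r of 0.31. The White* and Red* replicate differences were set beside Fab2L minus w1118, which uses none of their libraries. In heads r was -0.44 for White* and -0.17 for Red*, and in eggs -0.22 and 0.12. All these values are descriptions across genes.

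Other cells were checked beside these differences. In eggs the photoreceptor opsin ninaE was at 6.63 FPKM in w1118, 0.78 FPKM in Fab2L, 1.55 FPKM in White* and 5.57 FPKM in Red*, and 2 of 3 photoreceptor markers tested were called higher in Red* than in White*. Of 4 fat body markers tested 3 were also called higher, and their list summed to 6.38 and 5.68 FPKM in Red* eggs and 1.68 FPKM in both White* libraries, beside 800 to 1720 FPKM in heads. Of 8 maternal germline and egg markers 2 were called lower in Red* eggs, pgc (-0.62 ± 0.19) and osk (-0.27 ± 0.05). None of the 8 was called higher, and 6 were lower by sign. The part of these markers in the egg result was not tested. In heads, 1 of 7 neuronal markers was called higher in Red* than in White* (list median 0.31), as was 1 of 3 testis markers tested, bol (0.77 ± 0.13, adjusted p = 0.029). By sign all 7 neuronal, all 9 muscle (median 0.19) and all 3 testis markers were higher in Red* heads. None of 9 muscle, 8 photoreceptor, 6 glial, 6 fat body and 4 hemocyte markers was called in either direction by limma. At an unadjusted p below 0.05, 3 neuronal and 3 muscle markers, 1 testis marker and 1 fat body marker were higher and 3 glial markers lower. The summed neuronal markers were 481 and 382 FPKM in Red* heads and 363 and 327 FPKM in White* heads, and the part of these markers in the head result was not tested.

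Related gene lists were counted in the same comparison, with the symbols found in the tables. Of the 9 nuclear subunit genes named otherwise, 2 were called lower in Red* heads, RFeSP (-0.94 ± 0.19), the Rieske iron-sulfur protein of complex III, and cype (-0.78 ± 0.16), a complex IV subunit. In eggs 5 of the 9 were called higher and 1 lower, with RFeSP at 0.97 ± 0.12, levy at 0.79 ± 0.15, and blw, the alpha subunit of the ATP synthase, at 0.65 ± 0.07. Glycolysis genes had 7 of 11 called higher and none lower in Red* eggs (median 0.47) and 1 of 13 lower in heads, Tpi, triosephosphate isomerase, at -0.996 ± 0.173. By sign all 13 glycolysis genes were lower in Red* heads (median -0.33), 8 of them at an unadjusted p below 0.05. Tricarboxylic acid cycle genes had 8 of 13 higher and 2 lower in eggs, led by Pdhb (0.84 ± 0.08), which was lower in Red* heads (-0.91 ± 0.17). Pdhb was the only 1 of the 13 called in heads, where 11 were lower by sign (median -0.11). Assembly factors, of which 9 of 31 listed symbols were found, had 2 higher and 2 lower in eggs. In heads none of the 9 was called by limma, and 2 were lower at an unadjusted p below 0.05. Regulators of mitochondrial biogenesis had 3 of 10 higher and 1 lower in eggs, and none of 9 called in heads, where 1 was higher at an unadjusted p below 0.05.

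The cytosolic ribosomal protein genes showed a similar pair of directions, with 24 of 79 lower and none higher in Red* heads (median -0.54) and 39 of 80 higher and 12 lower in Red* eggs (median 0.20). The mitochondrial ribosomal protein genes had 4 of 70 lower in heads and none higher (median -0.16), and 8 of 70 higher and 10 lower in eggs (median 0.00). No test was made of the difference between these lists and the subunit genes.

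White* and Red* were next each compared with Fab2L, which has the same genotype label, and these 2 comparisons share the Fab2L libraries with each other and with the next one. In heads no subunit gene was called between White* and Fab2L by limma, where 0.0899% of all genes were called higher and 0.027% lower. None was called by limma-voom on recovered reads either, against 0.063% and 0.018% of all genes, with 57 of 71 genes higher in White* by sign (50.3% of all genes) and a median of 0.16. At an unadjusted p below 0.05, 5 were higher and 1 lower, beside 3.29% and 4.71% of all genes. Between Red* and Fab2L heads ND-AGGG alone was called (0.81 ± 0.10, adjusted p = 0.013; 0.378% of all genes were called higher and 1.87% lower). None was called lower, and at an unadjusted p below 0.05 there were 3 higher and 14 lower, beside 7.19% and 12.7% of all genes. By limma-voom 1 was higher and none lower, beside 0.477% and 2.85%. The call of ND-AGGG was lost without either Fab2L head library. The median of the 71 was -0.16.

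In eggs 8 genes were called lower in White* than in Fab2L and 2 higher, beside 8.87% and 6.57% of all genes, with a median of -0.13 beside 0.01 over all genes. The lower genes were ND-75 (-0.58 ± 0.10), ND-B15 (-0.44 ± 0.11), ND-B17 (-0.43 ± 0.10), ND-18 (-0.43 ± 0.09), ND-B14 (-0.36 ± 0.06), ND-B14.5A (-0.34 ± 0.08), SdhA (-0.26 ± 0.05) and UQCR-C1 (-0.23 ± 0.06), and ND-MWFE (0.44 ± 0.10) and ND-49 (0.21 ± 0.05) were higher. No gene was called without Fab2L replicate 1 or without White* replicate 2, and 1 higher and 2 lower were called without Fab2L replicate 2.

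Between Red* and Fab2L eggs 11 genes were called higher and 2 lower, beside 12.6% and 11.1% of all genes. UQCR-C2 (0.74 ± 0.14), SdhB (0.60 ± 0.13), ATPsynF (0.46 ± 0.08), ND-18 (0.37 ± 0.09), UQCR-C1 (0.36 ± 0.06), ATPsynD (0.33 ± 0.09), ND-24 (0.27 ± 0.08), ND-13B (0.26 ± 0.05) and ND-B14.5A (0.25 ± 0.08) were higher, and COX7C (-0.23 ± 0.06) was lower. After removal of the 20 most abundant genes 26 were higher and none lower, a setting for which the shares of all genes are not given here. No gene was called without Fab2L replicate 2, 7 higher and 1 lower without Fab2L replicate 1, and 5 higher and 1 lower without Red* replicate 2. In eggs the mean levels of UQCR-C2, SdhB and ND-75 were thus lowest in White* and highest in Red*. White* against Fab2L was not called for UQCR-C2 (-0.46 ± 0.14, adjusted p = 0.059) or SdhB (-0.46 ± 0.13, adjusted p = 0.053), nor was Red* against Fab2L for ND-75 (0.25 ± 0.10, adjusted p = 0.11).

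The last comparison asks what differs between the line with the transgene and w1118 without it. By sign 62 of 71 subunit genes were lower in Fab2L in heads, where 52.5% of all genes were, and 51 of 60 in eggs, where 49.7% were. In heads 7 were called lower and none higher, beside 3.12% and 3.51% of all genes. At an unadjusted p below 0.05, 35 were lower and none higher, beside 11.0% and 10.3% of all genes. By limma-voom 11 were lower and none higher, beside 2.96% and 4.06%. The median of the 71 genes was -0.33, beside -0.01 over all genes, and libraries did not overlap for 60 lower and 4 higher genes, against 27.3% and 24.7% of all genes. In eggs 15 were called lower and 1 higher, beside 14.4% and 14.6% of all genes, with a median of -0.15 beside 0.00, and libraries did not overlap for 36 lower and 2 higher genes, against 32.5% and 34.2%.

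ND-B14, a small complex I subunit gene (chromosome 2R, 10897144 to 10897885), had the largest difference among the genes called in each tissue. It had 55.5 and 69.4 FPKM in w1118 heads, 30.1 and 30.0 FPKM in Fab2L, 28.05 and 30.6 FPKM in White*, and 32.1 and 33.1 FPKM in Red*. In eggs it had 30.2 and 27.3 FPKM in w1118, 14.8 and 13.6 FPKM in Fab2L, 11.0 and 10.6 FPKM in White*, and 14.2 and 14.7 FPKM in Red*. All w1118 libraries lay above all libraries of the 3 transgenic lines in each tissue. Fab2L against w1118 was -1.02 ± 0.11 in heads (adjusted p = 0.0025) and -0.97 ± 0.06 in eggs (adjusted p = 2.9e-05), and the call held under every setting tried. The difference between the tissues was -0.05 ± 0.13 (adjusted p = 0.85).

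ND-42 (chromosome 3R, 22027709 to 22029393) differed in eggs in the other direction. It had 60.4 and 60.5 FPKM in w1118 eggs, 96.4 and 99.1 FPKM in Fab2L, 96.7 and 90.3 FPKM in White*, and 95.0 and 85.8 FPKM in Red*. In heads it had 94.6 and 93.5 FPKM in w1118, 98.1 and 100.5 FPKM in Fab2L, 102 and 101 FPKM in White*, and 79.8 and 101 FPKM in Red*. The w1118 eggs thus stood alone, with a difference from Fab2L of 0.68 ± 0.06 in eggs (adjusted p = 0.00013) and 0.08 in heads (adjusted p = 0.75), and the 2 differed by -0.61 ± 0.13 (adjusted p = 0.0095).

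**Figure D5:**
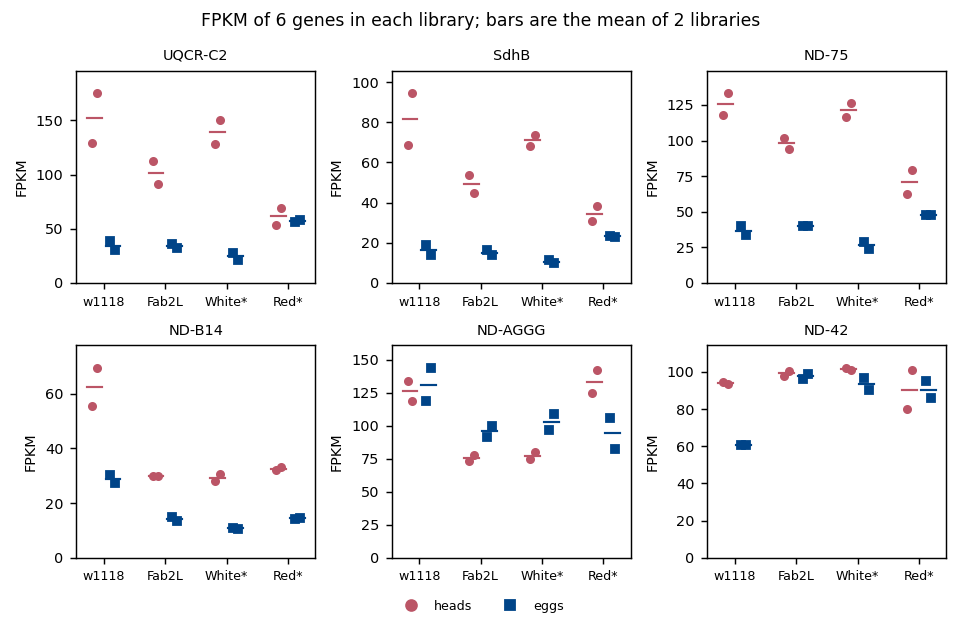
FPKM in each library of 6 genes, with circles for heads, squares for eggs, bars for the mean of 2 libraries and axes that start at 0. UQCR-C2, SdhB and ND-75 are lowest in Red* heads and highest in Red* eggs, ND-B14 is highest in w1118 in both tissues, ND-AGGG is high in w1118 and Red* heads, and ND-42 is low in w1118 eggs alone.

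The other genes called lower in Fab2L heads were ND-AGGG (-0.73 ± 0.10), SdhD (-0.57 ± 0.12), COX5A (-0.54 ± 0.12), ND-B17.2 (-0.47 ± 0.11), COX6B (-0.46 ± 0.10) and SdhA (-0.39 ± 0.09). Without Fab2L replicate 1 only ND-B14 was left, and 2 genes were called without Fab2L replicate 2 or without w1118 replicate 2. In eggs the genes after ND-B14 were COX8 (-0.68 ± 0.10), ND-B12 (-0.65 ± 0.13), UQCR-6.4 (-0.55 ± 0.11), ND-AGGG (-0.44 ± 0.13), ATPsynG (-0.42 ± 0.06), COX6B (-0.37 ± 0.09), ATPsynF (-0.34 ± 0.08) and ND-13B (-0.31 ± 0.05). They numbered 7 of 32 in complex I, 1 of 4 in complex II, 1 of 5 in complex III, 3 of 8 in complex IV and 3 of 11 in complex V, and 7 lower genes were left after the 20 most abundant genes were removed. In eggs 6 lower genes were called without w1118 replicate 1 and 7 without Fab2L replicate 2. The line difference was called as differing between the tissues for 3 of 71 genes. For all 3 genes Fab2L minus w1118 was lower in heads than in eggs, beside 6.04% of all genes in that direction and 6.49% in the other. They were ND-42, ATPsynCF6 (-0.36 ± 0.10) and SdhA (-0.34 ± 0.09).

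In the same head comparison 5 of 9 muscle markers were called lower in Fab2L (list median -0.75) and none higher, and their summed level was 1505 and 1913 FPKM in w1118, 1007 and 1221 FPKM in Fab2L, 1225 and 1247 FPKM in White*, and 1414 and 1317 FPKM in Red*. Fat body markers had 2 of 6 called lower (median -0.66), to and Lsp2. Yp1, a yolk protein gene among these markers, reached 110 FPKM in 1 w1118 head library. Its w1118 mean was 55.5 FPKM with an SD of 77.3 FPKM, beside means of 0.34 to 1.33 FPKM in heads of the other lines. What this library means for the comparison, which rests on 2 w1118 libraries labelled as male heads, was not tested. Of the photoreceptor markers 1 of 8 was called lower, trpl (-1.32 ± 0.13), and of the hemocyte markers 1 of 4, Sr-CI (-0.68 ± 0.16). None of 7 neuronal markers was called by limma, but all 7 were lower by sign (median -0.28) and 2 at an unadjusted p below 0.05. In eggs 2 of 3 photoreceptor markers tested were called lower in Fab2L, ninaE (-2.10 ± 0.08) and Arr2 (-1.17 ± 0.08). Of 4 fat body markers tested in eggs 2 were called higher, Cyp4g1 (1.27 ± 0.10) and apolpp (0.66 ± 0.12), as was TpnC4 (1.26 ± 0.15), the 1 muscle marker tested there. The egg libraries held 1.52 to 3.49 FPKM of muscle markers in sum. The part of these markers in the subunit differences was not tested. Mitochondrial ribosomal protein genes had 2 of 70 called lower in Fab2L heads and none higher, and 22 lower and 2 higher in eggs. Of 79 cytosolic ribosomal protein genes none was called in heads by limma, and 62 were lower by sign (median -0.09). In eggs 26 of 80 were called lower and none higher (median -0.18). Of 13 glycolysis genes 2 were called lower in heads and all were lower by sign (median -0.27). In eggs 1 of 11 was called higher (median -0.08). Of 13 tricarboxylic acid cycle genes 1 was called lower in heads, 12 were lower by sign (median -0.30) and 2 were called lower in eggs. Of the 9 subunit genes named otherwise, 1 was called lower in Fab2L heads, Cyt-c1 of complex III (-0.64 ± 0.10), and 4 in eggs, again led by Cyt-c1 (-0.68 ± 0.06). The subunits encoded by mitochondrial DNA had none called by limma in either tissue, and 1 higher at an unadjusted p below 0.05 in eggs, with medians of 0.25 in heads and -0.44 in eggs.

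The genomic lists of variants specific to Red* or White* were compared with the gene positions. None of the 168 Red* and 2379 White* single nucleotide variants, the 22 and 30 small deletions or the 20 and 16 small insertions lay within 1000 bp of the span of any of the 84 genes. How often this holds for other genes was not counted, and these lists do not bear on Fab2L against w1118.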

How the data were processed

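Long RNA libraries were aligned with STAR 2.5 to dm6 and processed with DESeq2, per the submitters' processing notes; the counting settings and use of strand are not given in the sources used here. The authors deposited FPKM per gene for each library. With a length for each gene chosen to make its values whole, 99.98% of values above 0 were whole multiples of what 1 read is worth (tolerance 0.001 reads). Because the length was fitted, this share is no independent check. The whole multiples gave the summed reads per library. The denominators behind the FPKM equalled a median-ratio size factor times the geometric mean depth of the tissue (ratios of 1.00951 to 1.00966 in heads and 0.999949 to 1.00004 in eggs), so heads and eggs had been scaled separately.

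FlyBase identifiers were matched to symbols for 17252 of 17558 genes. Gene positions came from RefSeq (Release 6 plus ISO1 MT, the dm6 assembly). Differences were fitted with limma 3.58.1 (trend) on log2(FPKM + 1) over all 4 lines of a tissue, or all 16 libraries for comparisons between tissues, keeping genes that exceeded FPKM 1 in 2 or more libraries. Replicate numbers were not used in the fit, and those of the Red* egg libraries differ between titles and file labels. On data simulated for Red* against White* heads, 189 of 194 genes changed by a known amount were called, with 10 false calls among 11033 genes. The changed genes lay well above the filter, and the spread was fixed beforehand, without shifts shared by many genes of a library. Real libraries held such shifts, so the simulation cannot show how many calls on the real libraries are true. Alternatives are given at the end. Variant positions were taken from the deposited lists; small RNA tables were not used.

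Named genes were the 3 highest and 2 lowest per complex and tissue, 7 central subunits, members at or under FPKM 1, and for each comparison all called members or the 10 with the largest difference (5 in each direction between tissues). The members, lists and tests were chosen with earlier results of these data known.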

Additional observations from a re-analysis of the deposited data

Results flagged for a closer look

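The Red* against White* difference was itself different between heads and eggs for 40 of the 71 genes by the interaction term of limma. Of all genes tested, 25.2% were called. The 10 largest (heads minus eggs, log2) were UQCR-C2 at -2.38, SdhB at -2.08, ND-B15 at -1.75, ND-18 at -1.62, ND-75 at -1.61, ND-B14.5A at -1.41, ND-B17 at -1.40, ND-B18 at -1.34, ND-B12 at -1.28 and ND-24 at -1.20. The Fab2L against w1118 difference was different between the tissues for 3 of the 71 genes, ND-42 at -0.61, ATPsynCF6 at -0.36 and SdhA at -0.34. Of all genes tested, 6.04% were called in that direction and 6.49% in the other, so the subunit genes did not exceed all genes here. Whether 1 library stood apart from its group was not tested in groups of 2 libraries.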

How the results depend on the processing

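With 2 libraries per line the counts of genes called in 1 tissue depend on single libraries, while the difference between tissues in Red* against White* was called for 29 to 49 genes in all 15 other settings. With 1 library left out, Red* against White* in heads gave 0 to 25 calls and in eggs 17 to 33, Red* against Fab2L 0 to 5 in heads and 0 to 13 in eggs, White* against Fab2L 0 to 10 in eggs, Fab2L against w1118 1 to 7 in heads and 7 to 19 in eggs, and its difference between tissues 1 to 10. The lone library of a line is then assumed to vary like the other lines. Without the filter on low values, which adds genes to the correction, 2 genes were called for Red* against White* in heads, 4 for Fab2L against w1118 in heads, 2 for White* against Fab2L, 6 for Red* against Fab2L and 10 for Fab2L against w1118 in eggs. After the 20 most abundant genes were removed, the counts were 26 for Red* against Fab2L in eggs, 8 for Fab2L against w1118 in eggs and 7 for its difference between tissues. Scaled to summed reads, a setting chosen after the data were seen, they were 25, 8 and 5, and 7 for Red* against White* in heads. By limma-voom on recovered reads, also chosen after the data were seen, Fab2L against w1118 in heads gave 11. For most of these settings the share of all genes called is not given here, so their counts cannot be set beside all genes. The cause of these changes was not tested.

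Heads against eggs reversed for 3 genes. UQCR-11 was at 0.10, ATPsynE at 0.37 and ND-ACP at 0.48 with median-ratio scaling, at 0.0651, 0.34 and 0.44 after removal of the 20 most abundant genes, and at 0.10, 0.38 and 0.48 by limma-voom. Whether the replicate numbers pair the samples was not settled: deviations of same-numbered libraries correlated between -0.18 and 0.23 in heads and between -0.20 and 0.36 in eggs. Of the 71 subunit genes, 58 in w1118, 60 in White* and 62 in Red* heads were higher in replicate 2, and 30 in Fab2L heads. Of the 60 in eggs, those higher in replicate 2 were 14 in w1118, 25 in Fab2L, 15 in White* and 28 in Red*. With the replicate block, White* against Fab2L in eggs gave 16 calls in place of 10, and the other counts stayed within 1.5 times. Over all settings, 101 counts were within 1.5 times and 40 were not, and of the single genes 821 values kept their call, 187 lost it and 9 reversed. A planned count-model test on recovered reads was not run, because the deposited values are FPKM.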
